A study of Homo sapiens with 6 samples.

Results

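Transcripts of 36 glycolysis and hypoxia genes were compared between wild-type HAP1 cells and HAP1 cells in which CTCF carried the substitutions Y226A and F228A. The genes were chosen by symbol from a list of glycolytic enzymes, their transporters and regulators, and genes known to respond to low oxygen, and all 36 were found among the 57773 genes of the count table. HAP1 cells are a human line with a near-haploid genome that goes back to a chronic myeloid leukaemia. Each genotype had 3 libraries of polyadenylated RNA. The mutant was made by Cas9 cutting of CTCF with a repair oligonucleotide and a puromycin selection, and clones were checked by sequencing. Whether the 3 libraries of a genotype stem from different clones or cultures is not said in the labels, so the p-values below measure the spread between these libraries, and the substitutions and the state of an edited clone cannot be told apart. The labels name no oxygen treatment, and the same medium is given for both genotypes.

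Glycolysis converts glucose to pyruvate through hexokinase, phosphofructokinase, aldolase, enolase, pyruvate kinase and the enzymes between them, and lactate dehydrogenase turns pyruvate into lactate. When oxygen is low, the transcription factor subunit HIF-1 alpha, encoded by HIF1A, escapes hydroxylation by the EGLN enzymes and destruction, and it binds short DNA elements near genes for glucose transport, glycolysis, mitophagy, angiogenesis and collagen modification. Many glycolytic genes are therefore also counted among hypoxia genes. HIF-1 alpha is controlled mainly as a protein, which transcript counts do not measure.

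The libraries held 7764009 to 9610028 gene counts, so that 3 counts in a library correspond to 0.312 to 0.386 CPM (gene counts put on an equal library size in the usual CPM unit). These values and the summed levels in this paragraph are over raw library totals, and other CPM are after TMM scaling. CTCF itself had 106, 111 and 111 CPM in the wild type and 131, 140 and 135 CPM in the mutant (log2 change 0.31, SE 0.058), and gene counts do not show whether a library carried the substitutions. Of 8 blood lineage markers, PTPRC, GATA1, SPI1 and HBG1 had 0 counts in all 6 libraries, CD33, CD34 and ITGAM had at most 2 counts in any library, and KIT had 22.4 ± 1.03 CPM in wild-type libraries and 23.6 ± 2.32 CPM in mutant libraries (SD, n = 3, not called). The summed level of the 8 markers was 21.5 to 24.0 CPM in the wild type and 21.3 to 25.7 CPM in the mutant. The 13 mitochondrially encoded mRNAs summed to 47129, 44096 and 48588 CPM in the wild type and 48384, 40282 and 37373 CPM in the mutant, with overlap, and 2 of them were called higher and 3 lower. Their part in the results on the members was not tested. In bulk RNA, fewer cells of a kind and less RNA per cell cannot be told apart.

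Of the 35 members with enough counts to be tested, 2 rose and 8 fell in the mutant at an edgeR adjusted p under 0.05, and 25 were not called. Among all 14835 tested genes, 21.2% were called, 11.9% as higher and 9.26% as lower. The members' median log2 change was -0.13, against -0.001 over all tested genes. Glucose transporter SLC2A1 and HIF1A rose. The hexokinase gene HK2, the regulatory enzyme gene PFKFB4, the oxygen sensors EGLN1 and EGLN3, the mitophagy receptors BNIP3 and BNIP3L, the histone demethylase gene KDM3A and the collagen prolyl hydroxylase gene P4HA1 fell. Most of the calls were outside the glycolytic enzymes. Of 17 enzyme genes 1 was called, and of the 18 other tested members 9 were called. The number of members called lower depended on single libraries. Leaving out wild-type replicate 3 gave 16, leaving out wild-type replicate 2 gave 4 and leaving out mutant replicate 3 gave 5. In these settings 15.9%, 17.9% and 16.8% of all tested genes were called in either direction, in the same order. The number called higher was 1 without wild-type replicate 1, mutant replicate 2 or mutant replicate 3, when HIF1A was not called. All tested genes called in either direction were then 16.5%, 16.2% and 16.8%. CA9, a carbonic anhydrase gene widely used as a marker of hypoxia, had 2 counts in wild-type replicate 1 and 0 in the other libraries and was not tested.

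**Figure D1:**
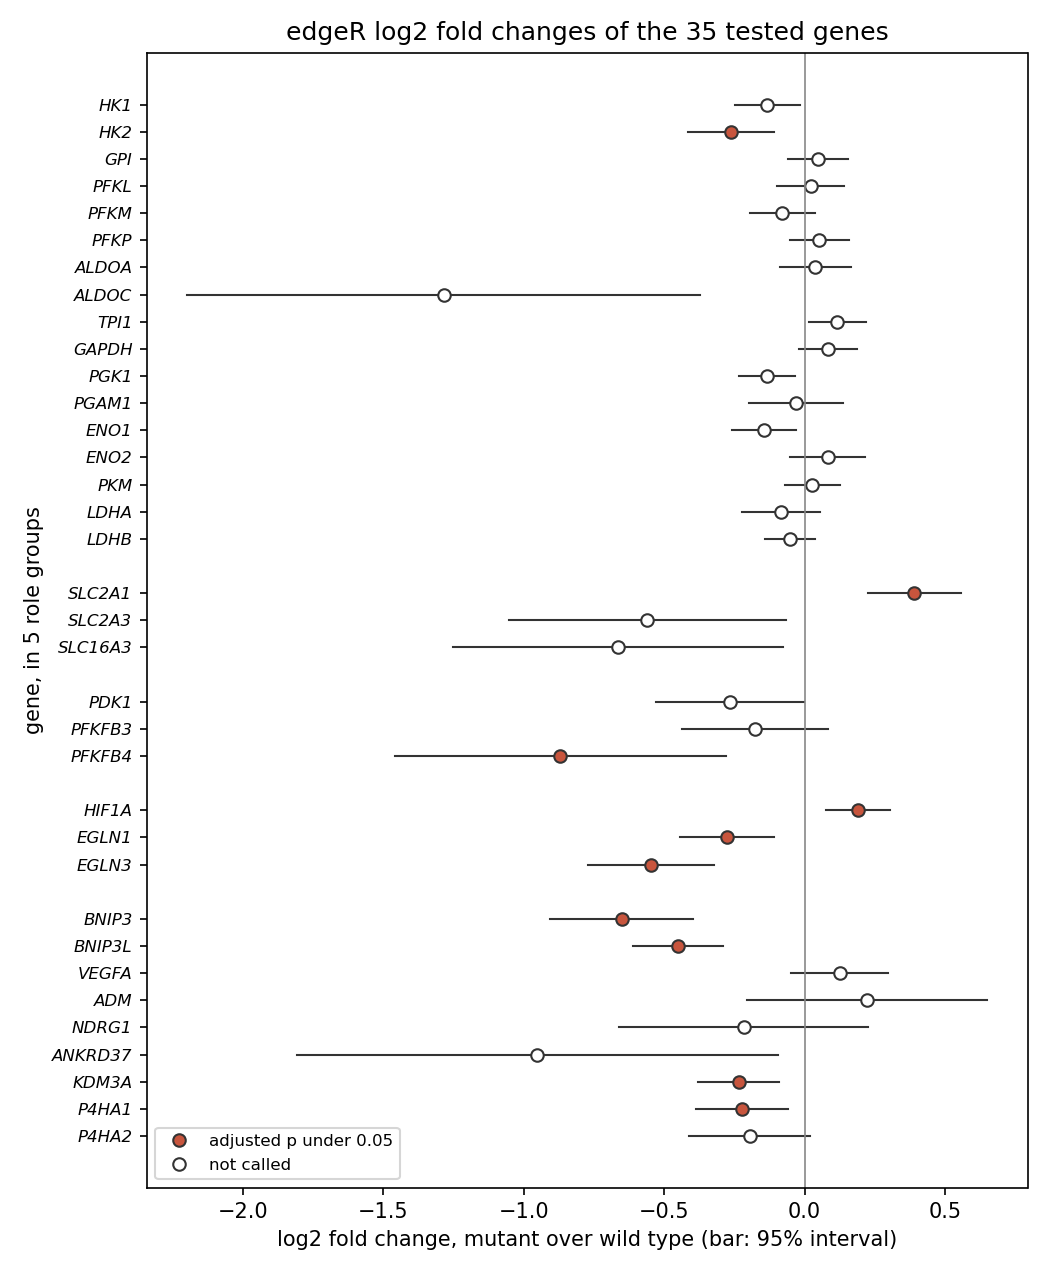
Log2 fold change of mutant over wild type for the 35 tested members, grouped from top to bottom as glycolytic enzymes, transporters, pathway regulators, oxygen sensing genes and hypoxia response genes. Points are edgeR estimates, bars their 95% intervals, and filled points have an adjusted p under 0.05. SLC2A1 and HIF1A lie above 0, and the other 8 filled points lie below it.

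Upstream sequences of 4 members that bracket these results are shown because HIF binds a short core, ACGTG or GCGTG. BNIP3 and EGLN3 fell, SLC2A1 rose and GAPDH was not called. Each sequence is the 250 bases before the RefSeq start of the gene on GRCh38.p14, read 5′ to 3′ on the gene's strand, with each match to either core form on either strand in capitals. BNIP3 lies at chr10:131981924-131982173 (minus strand), EGLN3 at chr14:33951075-33951324 (minus strand), SLC2A1 at chr1:42958869-42959118 (minus strand) and GAPDH at chr12:6535014-6535263 (plus strand).
BNIP3: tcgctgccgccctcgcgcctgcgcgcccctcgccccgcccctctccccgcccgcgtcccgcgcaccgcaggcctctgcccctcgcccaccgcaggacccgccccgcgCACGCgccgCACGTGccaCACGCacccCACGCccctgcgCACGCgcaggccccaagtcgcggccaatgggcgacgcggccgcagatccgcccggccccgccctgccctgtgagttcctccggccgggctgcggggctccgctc
EGLN3: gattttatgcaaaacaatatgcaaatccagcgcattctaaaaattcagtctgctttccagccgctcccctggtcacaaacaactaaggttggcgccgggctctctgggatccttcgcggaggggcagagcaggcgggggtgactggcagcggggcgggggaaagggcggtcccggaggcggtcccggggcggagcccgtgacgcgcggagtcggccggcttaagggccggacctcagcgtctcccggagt
SLC2A1: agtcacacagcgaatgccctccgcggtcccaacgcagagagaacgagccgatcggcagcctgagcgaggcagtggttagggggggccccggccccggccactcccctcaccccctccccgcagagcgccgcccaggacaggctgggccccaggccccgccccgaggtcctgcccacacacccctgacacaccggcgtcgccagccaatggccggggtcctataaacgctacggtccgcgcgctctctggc
GAPDH: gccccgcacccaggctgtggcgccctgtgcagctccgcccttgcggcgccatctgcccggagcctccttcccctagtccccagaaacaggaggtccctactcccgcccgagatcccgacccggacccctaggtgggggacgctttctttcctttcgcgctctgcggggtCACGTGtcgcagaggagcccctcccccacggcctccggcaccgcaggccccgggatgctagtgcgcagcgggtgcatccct

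The BNIP3 stretch held 6 matches, which begin 143 to 104 bases before the start, and in GAPDH the 2 matches overlap as a single palindrome at 81 to 80 bases. EGLN3 had 0 matches, and the only match of SLC2A1 lies after the start and outside the stretch shown. Promoter windows of 250 bases before to 50 after a start were given by RefSeq for 32 of the 36 members, with 60 windows in all. At least 1 match was found for 29 of these 32 (90.6%), against 52.4% of 27305 symbols in the table and 71.3% of 9669 symbols of tested genes, and a palindrome counts once on each strand. Members with several windows have more bases in which to match. Matches were found for 6 of the 7 members with a window that fell, for both that rose, for 20 of the 22 that were not called and for CA9. The letters AGGNGGC, from the core of the CTCF motif, occurred on either strand for 21 of the 32 members (65.6%), against 54.7% of the symbols of tested genes. These are matches of letters, and binding was not measured.

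Glycolytic enzyme transcripts were close in level in both genotypes. Summed over the 17 genes, the wild-type libraries had 12725, 12120 and 11322 CPM and the mutant libraries 11685, 11566 and 12192 CPM. The mutant libraries lay inside the wild-type range. Apart from ALDOC and HK2, the enzymes' log2 changes ran from -0.14 to 0.12, and the outermost limits of their 95% intervals were -0.26 and 0.22, so that a change beyond 0.837-fold or 1.16-fold lies outside the interval of each of these 15 genes. GAPDH, the dehydrogenase often used as a reference transcript, had 1507, 1412 and 1337 CPM in the wild type and 1479, 1454 and 1577 CPM in the mutant. Its groups overlapped (log2 change 0.08, interval -0.02 to 0.19). For PKM, which encodes pyruvate kinase, the values were 2556, 2451 and 2302 CPM against 2440, 2428 and 2583 CPM (0.03, interval -0.07 to 0.13), again with overlap.

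For 4 other enzyme genes, small differences missed the threshold and passed it in at least 1 alternative. ENO1, the main enolase gene, had 2330, 2137 and 1960 CPM in the wild type and 1943, 1861 and 2013 CPM in the mutant (log2 -0.14, SE 0.054, adjusted p = 0.0656). Wild-type replicate 3 lay within the mutant range. The log2 change of ENO1 was -0.20 without that library (adjusted p = 0.0193) and -0.08 without wild-type replicate 1 (0.366). PGK1, the first ATP-forming enzyme of the pathway, had 1294, 1268 and 1161 CPM against 1097, 1141 and 1159 CPM (log2 -0.13, adjusted p = 0.0544, and 0.0329 without wild-type replicate 3). All 3 mutant libraries were below the wild type, but only just below replicate 3. TPI1, triosephosphate isomerase, differed the other way, with 442, 433 and 422 CPM against 447, 492 and 469 CPM (log2 0.12, adjusted p = 0.0947). For TPI1 it was 0.15 without mutant replicate 1 (adjusted p = 0.0231) and 0.08 without mutant replicate 2 (0.424). HK1, the more constant hexokinase gene, had 229, 210 and 216 CPM against 207, 186 and 204 CPM (log2 -0.13, adjusted p = 0.0995, and 0.0429 without mutant replicate 1).

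HK2, the inducible hexokinase gene, was the only enzyme gene called. It fell 1.20-fold, from 163, 173 and 134 CPM to 126, 131 and 134 CPM (log2 -0.26, SE 0.073, adjusted p = 0.0134). Wild-type replicate 3 (134.05 CPM) lay just under the highest mutant library (134.17 CPM), so the groups overlapped. The call was lost when wild-type replicate 1 (adjusted p = 0.0766) or wild-type replicate 2 (0.0852) was left out.

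ALDOC, the brain-type aldolase gene, showed the largest estimated difference of all members and missed the threshold. Its wild-type libraries had 32.7, 25.6 and 14.2 CPM and its mutant libraries 13.1, 8.42 and 8.45 CPM. Each mutant library was below each wild-type library, but wild-type replicate 3 was nearer to mutant replicate 1 than to its own group. The log2 change was -1.29 (SE 0.367, adjusted p = 0.0627). Without wild-type replicate 3 it was -1.55 (adjusted p = 5.40e-07), and DESeq2 on all libraries called the gene (0.0171). ALDOA, the main aldolase gene, had 799, 736 and 650 CPM against 758, 712 and 775 CPM.

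**Figure D2:**
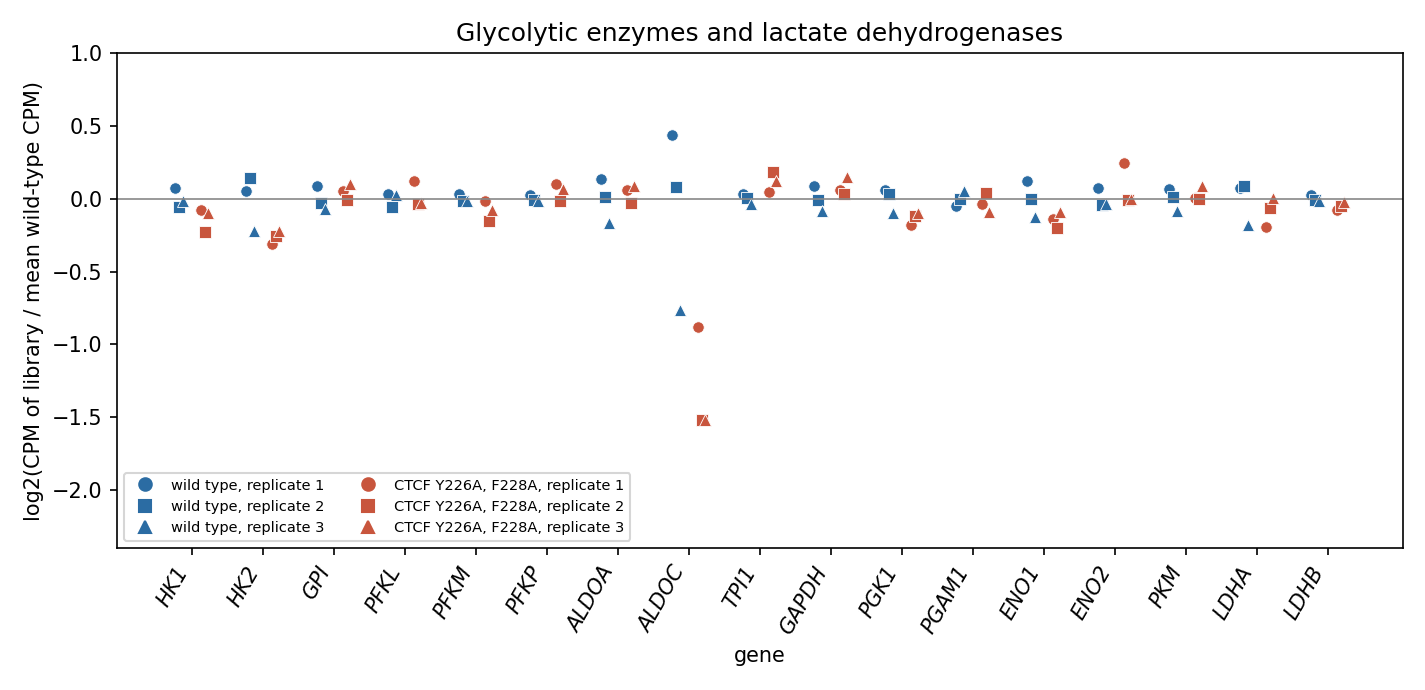
Each point is 1 library, as log2 of its CPM over the mean wild-type CPM of that gene, for the 17 glycolytic enzymes (blue: wild type, red: mutant, marker shapes: replicates 1 to 3). Apart from ALDOC, the libraries of both genotypes lie close to 0, and in ALDOC all 3 mutant points lie below the wild-type points.

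Per kilobase of annotated exon, wild-type levels of the enzymes ran from 476 ± 28.6 CPM per kilobase for GAPDH (mean ± SD, n = 3) to 8.26 ± 3.18 for ALDOC. ENO1 (406 ± 35.1) and LDHB (394 ± 6.17), next in that order, did not differ beyond their spread. PKM followed at 284 ± 14.9, PGK1 at 225 ± 12.8, ALDOA at 186 ± 19.1, TPI1 at 160 ± 3.78 and LDHA at 133 ± 13.3, in that order. The hexokinase and phosphofructokinase genes were lower, from 18.4 ± 0.641 for PFKL to 51.6 ± 0.810 for PFKP, each counted as a single isozyme gene. GPI (40.7 ± 2.35) and ENO2 (48.2 ± 2.21) lay in the same range. PGAM1, which has near-identical copies, was at 16.2 ± 0.584, and since reads with several alignments are not in these counts its level is uncertain. Exon lengths join all annotated transcripts of a gene, which lowers the level of genes with many transcripts.

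Balances between isozymes were computed as shares of counts per kilobase. With 3 against 3 libraries the exact two-sided permutation test cannot give a p under 0.10, so these shares are descriptions (9 shares, smallest adjusted value 0.180). PFKM, the muscle-type phosphofructokinase gene, held 23.9, 23.9 and 23.7% of the 3 PFK genes in the wild type and 22.4, 22.3 and 22.4% in the mutant. PFKP, the platelet-type gene, held 56.0, 56.6 and 55.75% against 57.0, 57.5 and 58.2%. Both shares had tight groups that did not overlap, although neither gene was called by itself. LDHB is the heart-type lactate dehydrogenase gene. It held 74.9 ± 1.80% of the LDHA and LDHB signal in wild-type libraries and 75.3 ± 0.948% in mutant libraries (SD, n = 3). These shares overlapped, and their difference changed sign when single libraries were left out. LDHB itself had 1198, 1166 and 1165 CPM in the wild type and 1115, 1135 and 1156 CPM in the mutant. Its CPM did not overlap, and the gene was not called. The share of ALDOC among the aldolases was 4.16 ± 1.20% and 1.75 ± 0.449%, and that of HK2 among HK1 and HK2 was 42.6 ± 3.44% and 40.6 ± 1.69%. The HK2 difference of -2.03 percentage points was -0.27 on leaving out wild-type replicate 2, -3.71 on leaving out wild-type replicate 3 and -1.17 on leaving out mutant replicate 1. ENO2, the neuron-type enolase gene, made up 10.6 ± 0.525% and 12.2 ± 1.12% of the enolase signal, a difference of 1.56 points that was 0.948 without mutant replicate 1.

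Several enzyme genes have processed pseudogenes that took reads of their own. Counts of rows named as pseudogenes came to 52.6% of the counts of the parent for TPI1, 32.3% for GAPDH, 25.5% for LDHA, 12.3% for HK2 and 7% for PGK1. Such reads may belong to either copy, and single values of these genes are uncertain to that extent. With the counts of all 154 such rows added to their parents, HK2 stayed lower (log2 -0.27, adjusted p = 0.0104), and GAPDH (0.09), LDHA (-0.09) and TPI1 (0.11) were not called. Reads with several alignments were 12.1 to 12.6% of reads in wild-type libraries and 11.5% in each mutant library, and their part in the values of these genes was not tested.

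The glucose transporters differed in direction. SLC2A1, the GLUT1 gene that supplies most cells with glucose, rose 1.31-fold, from 68.8, 60.2 and 54.05 CPM to 78.0, 77.8 and 84.8 CPM (log2 0.39, SE 0.080, adjusted p = 0.00105). Each mutant library was above each wild-type library, and the adjusted p was at most 0.0124 in each of 13 alternatives. SLC2A3, the high-affinity GLUT3 gene, had 17.6, 10.2 and 8.69 CPM in the wild type and 8.23, 7.26 and 9.5 CPM in the mutant. Wild-type replicates 1 and 2 lay above all mutant libraries and wild-type replicate 3 lay among them, and the gene was not called (log2 -0.56, SE 0.229, adjusted p = 0.105). The log2 change was -0.75 without wild-type replicate 3 (adjusted p = 0.0116) and -0.17 without wild-type replicate 1 (0.580), and with no filter on low counts the adjusted p was 0.00302. Its near-copy SLC2A14 makes the level of SLC2A3 uncertain. The SLC2A3 share of the summed GLUT1 and GLUT3 signal was 16.4, 11.5 and 10.98% in the wild type and 7.48, 6.68 and 7.92% in the mutant, without overlap. SLC16A3, the MCT4 lactate exporter gene, had 66.5, 49.98 and 34.9 CPM against 33.2, 29.5 and 33.3 CPM. The mutant libraries were all lower, by little against wild-type replicate 3. SLC16A3 was not called (log2 -0.66, SE 0.239, adjusted p = 0.114), and it was called when wild-type replicate 3 (log2 -0.87, adjusted p = 4.38e-06) or wild-type replicate 1 (-0.40, 0.0368) was left out.

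Among the regulators, PFKFB4 fell. The PFKFB enzymes make and break down fructose 2,6-bisphosphate, an activator of phosphofructokinase. PFKFB4 had 28.4, 17.8 and 12.98 CPM in the wild type and 10.9, 10.8 and 11.2 CPM in the mutant, a 1.83-fold fall (log2 -0.87, SE 0.260, adjusted p = 0.0432). The mutant libraries lay close together and below a wide wild-type spread. Its log2 change was -0.49 (adjusted p = 0.0346) without wild-type replicate 1. The call was lost when wild-type replicate 2 (adjusted p = 0.121) or mutant replicate 1 (0.215), 2 (0.145) or 3 (0.136) was left out, and with limma-voom (0.0848). PFKFB3, its more abundant relative, had 96.2, 81.1 and 63.1 CPM against 69.2, 72.7 and 71.8 CPM, with overlap (log2 -0.18, adjusted p = 0.346). Its log2 change was -0.32 without wild-type replicate 3 (adjusted p = 0.00922) and -0.02 without wild-type replicate 1 (0.926). The PFKFB4 share of both genes was 22.8, 18.01 and 17.1% in the wild type and 13.6, 12.9 and 13.5% in the mutant. PDK1, a kinase that inhibits pyruvate dehydrogenase and so restrains the conversion of pyruvate to acetyl-CoA, had 59.3, 62.2 and 40.8 CPM against 45.4, 46.4 and 43.8 CPM. Wild-type replicate 3 was the lowest of all 6 libraries for PDK1 (log2 -0.26, adjusted p = 0.153). For PDK1 the log2 change was -0.43 without that library (adjusted p = 0.00113) and -0.16 without wild-type replicate 2 (0.413), and with no filter on low counts the adjusted p was 0.0148.

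In the oxygen sensing group, the HIF subunit gene rose and both hydroxylase genes fell. HIF1A had 184, 186 and 191 CPM in the wild type and 202, 214 and 225 CPM in the mutant, a 1.14-fold rise (log2 0.19, SE 0.054, adjusted p = 0.0142). The groups did not overlap, but the call was lost without wild-type replicate 1 (adjusted p = 0.0586), mutant replicate 2 (0.0595) or mutant replicate 3 (0.126). EGLN3, the PHD3 prolyl hydroxylase gene and itself a HIF target, fell 1.46-fold, from 42.0, 38.9 and 30.7 CPM to 23.8, 24.9 and 27.9 CPM (log2 -0.55, SE 0.108, adjusted p = 0.000747). Each mutant library was lower, and the adjusted p was at most 0.0108 in the 13 alternatives. EGLN1, the PHD2 gene and main oxygen sensor, fell 1.21-fold, from 68.03, 78.2 and 62.2 CPM to 54.4, 58.7 and 58.9 CPM (log2 -0.28, SE 0.081, adjusted p = 0.0172). Its groups did not overlap either, and the call was lost without wild-type replicate 2 (adjusted p = 0.123).

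Among the hypoxia response genes that were called, both mitophagy receptors had the largest falls. BNIP3, a protein of the outer mitochondrial membrane, fell 1.57-fold, from 35.3, 38.8 and 25.7 CPM to 20.2, 22.3 and 21.2 CPM (log2 -0.65, SE 0.122, adjusted p = 0.000516). Its relative BNIP3L, also called NIX, fell 1.37-fold, from 114, 104 and 88.7 CPM to 75.0, 73.1 and 76.5 CPM (log2 -0.45, SE 0.077, adjusted p = 0.000169). For both genes each mutant library was below each wild-type library, and both were called in each of 13 alternatives. The row of the pseudogene BNIP3P1 held 295, 194 and 145 counts in the wild type and 122, 131 and 167 in the mutant, and all pseudogene rows of BNIP3 together came to 75.8% of its counts. With them added, BNIP3 stayed lower (log2 -0.63, adjusted p = 0.00285). BNIP3L overlaps PNMA2 on the other strand, a gene with 8155 counts over the libraries against 4562 for BNIP3L, and whether the counting used the strand is not given in the sources used here.

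KDM3A, a demethylase of histone H3 lysine residues, fell 1.18-fold, from 87.6, 82.7 and 78.1 CPM to 67.98, 74.4 and 69.1 CPM (log2 -0.23, SE 0.069, adjusted p = 0.0176). The groups did not overlap, and the call was lost without wild-type replicate 1 (adjusted p = 0.102) or mutant replicate 3 (0.0638). P4HA1, a catalytic subunit of collagen prolyl 4-hydroxylase, fell 1.17-fold, from 76.3, 73.8 and 61.6 CPM to 60.8, 61.3 and 59.6 CPM (log2 -0.22, SE 0.079, adjusted p = 0.0468). Wild-type replicate 3 was barely above the mutant libraries. That call was lost without wild-type replicate 1 (adjusted p = 0.232), wild-type replicate 2 (0.137), mutant replicate 2 (0.0809) or mutant replicate 3 (0.117), and with DESeq2 (0.114) and limma-voom (0.0529). The paralogue P4HA2 had 39.5, 44.9 and 33.6 CPM against 38.5, 33.3 and 31.2 CPM and was not called (log2 -0.20, adjusted p = 0.198). For P4HA2 it was -0.29 without mutant replicate 1 (adjusted p = 0.0412) and -0.10 without wild-type replicate 2 (0.601).

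The other tested hypoxia response genes were not called. VEGFA, the angiogenic growth factor gene, had 69.5, 66.8 and 62.6 CPM in the wild type and 83.3, 65.8 and 67.8 CPM in the mutant (log2 0.12, interval -0.05 to 0.30). Only mutant replicate 1 stood above the wild type. ADM, the gene of the vasodilator adrenomedullin, had 4.99, 7.50 and 4.79 CPM against 8.34, 6.22 and 5.49 CPM (0.22, interval -0.21 to 0.65). NDRG1, a stress-responsive gene, was near 4 CPM in both genotypes (4.14 ± 0.531 and 3.57 ± 0.368, log2 -0.22, interval -0.66 to 0.23). ANKRD37 had 34, 28 and 7 counts against 9, 15 and 12 (log2 -0.95, adjusted p = 0.111, 0.00430 without wild-type replicate 3 and 0.0252 with no filter on low counts). ANKRD37 overlaps UFSP2 (1374 counts) and SLC16A3 overlaps CSNK1D (7798 counts) on the other strand, with the same limit as for BNIP3L.

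**Figure D3:**
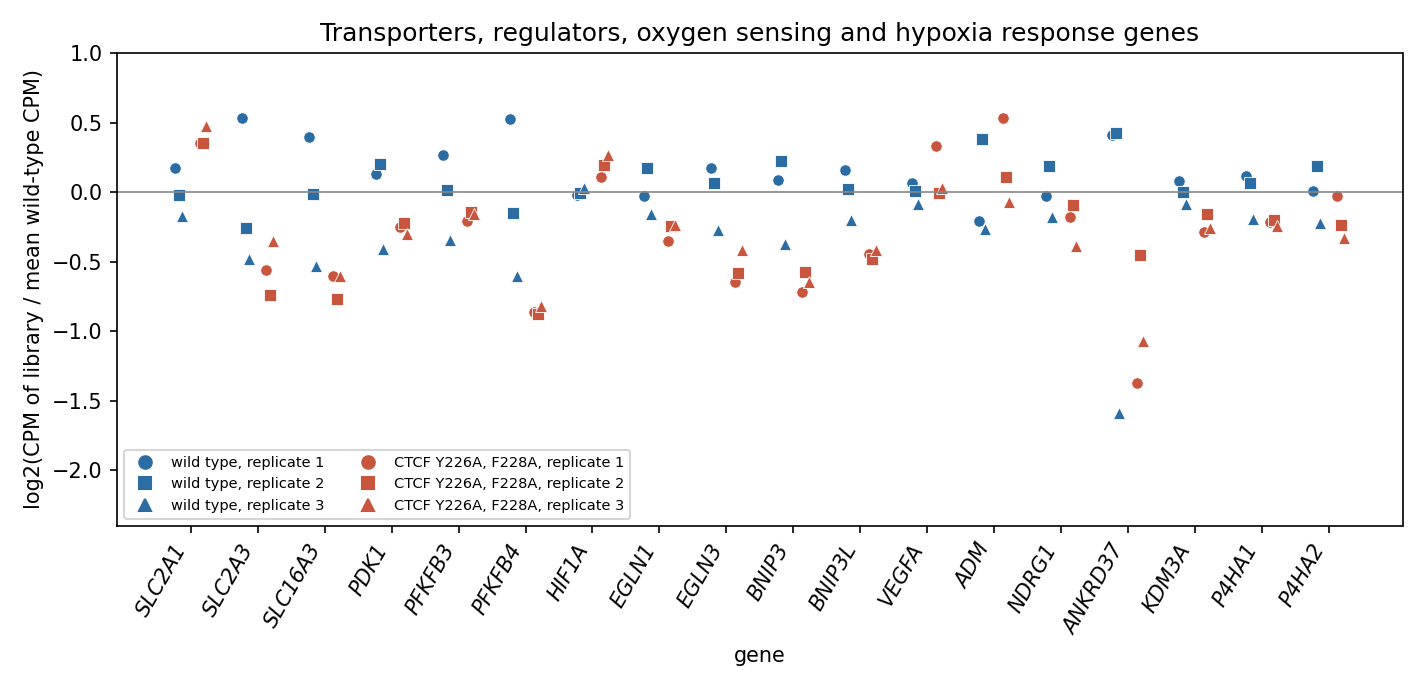
Each point is 1 library, as log2 of its CPM over the mean wild-type CPM of that gene, for the 18 tested members outside the glycolytic enzymes (blue: wild type, red: mutant, marker shapes: replicates 1 to 3). The blue triangle, wild-type replicate 3, is the lowest wild-type point in 17 of 18 genes and often lies near the red points.

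The wild-type libraries differed among themselves in these genes. Wild-type replicate 3 had the lowest wild-type CPM in 29 of 35 members (82.9%), against 29.9% of all tested genes, and in 17 of the 18 members outside the enzymes, HIF1A being the exception. Wild-type replicate 1 had the highest in 24 of 35 (68.6%), against 33.4% of all tested genes. Lists of other genes are described below. In them, wild-type replicate 3 was lowest in 53.5% of HIF targets, 50% of HIF regulators and 24.1% of glucose and pyruvate genes. Wild-type replicate 1 was highest in 53.5%, 37.5% and 34.5% of these lists, in the same order. Outside the enzymes, the coefficient of variation was larger in the wild type than in the mutant for 16 of 18 members (88.9%), against 46.7% of all tested genes, with medians of 14.95% and 5.16%. The same medians over all tested genes were 7.29% and 7.71%. These are descriptions, since members measured in the same 3 libraries are not independent of each other.

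Sums over the members of each role were also compared. The 10 hypoxia response genes together had 435, 426 and 360 CPM in the wild type and 359, 342 and 335 CPM in the mutant, so that wild-type replicate 3 and mutant replicate 1 were nearly level. The 3 regulators had 184, 161 and 117 CPM against 125, 130 and 127 CPM, with wild-type replicate 3 below the mutant. Transporter sums were 153, 120 and 97.6 CPM against 120, 115 and 128 CPM, and sums of the oxygen sensing genes 294, 303 and 284 CPM against 280, 297 and 311 CPM, both with overlap. Members' genotypes did not overlap in 12 genes that were lower and 3 that were higher in the mutant, of 35, against 16.5% and 19.0% of all tested genes.

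**Figure D4:**
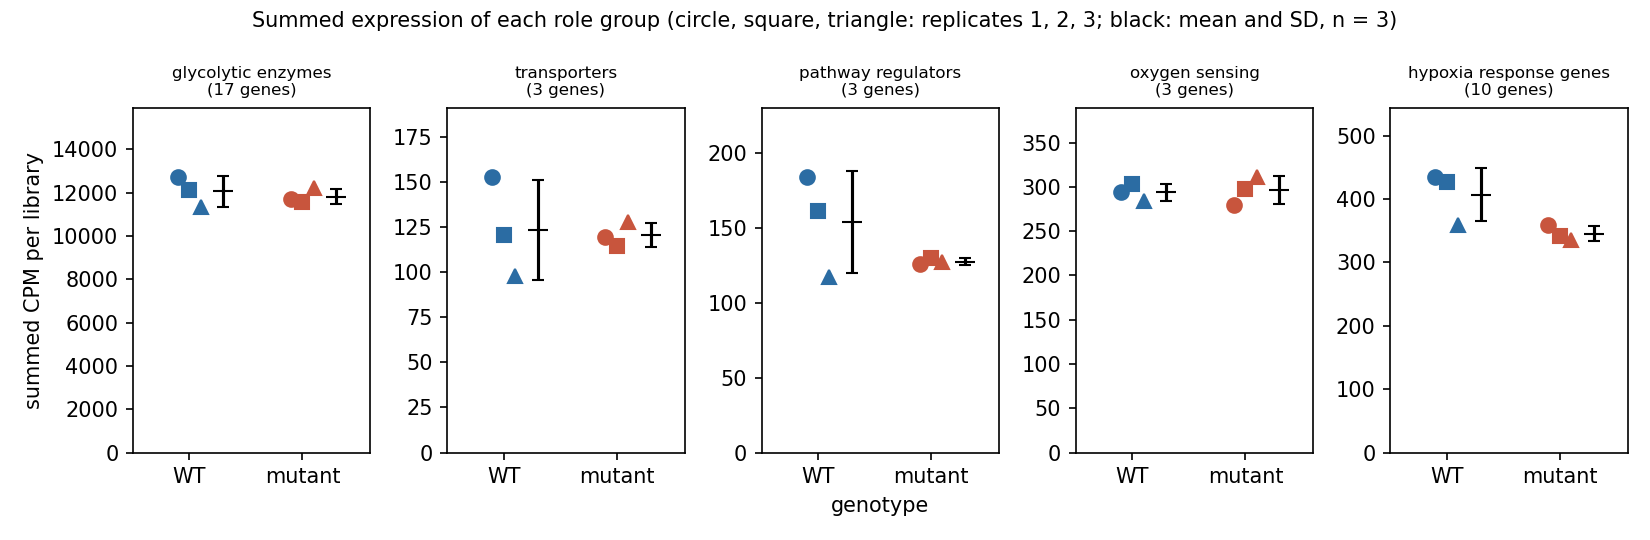
Summed CPM of each role group in each library (blue: wild type, red: mutant, circle, square and triangle: replicates 1, 2 and 3, black: mean and SD, n = 3), with axes from 0. The enzyme sums overlap between genotypes, and the hypoxia response sums of the mutant (335 to 359 CPM) lie below all wild-type sums, of which replicate 3 (360 CPM) is the lowest.

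The authors' deposited table of the same comparison gave adjusted p-values under 0.05 to 9 members, 2 higher and 7 lower, against 16.5% of its genes with an adjusted p. In that table ALDOC was among the lower genes (log2 -1.28, adjusted p = 0.0131). The authors' deposited table did not call PFKFB4 (adjusted p = 0.0597) or P4HA1 (0.0799). It is made from the same 6 libraries and is not independent evidence.

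Lists of other pathway genes were compared in the same fit. They were chosen with earlier results of these data known, so their shares beside those of all tested genes are descriptions. Of 29 tested other genes of glucose and pyruvate metabolism, 7 rose, 5 fell and 17 were not called (41.4% called, median log2 -0.07). Among all tested genes 21.2% were called, 11.9% as higher and 9.26% as lower. BPGM, which makes the red cell effector 2,3-bisphosphoglycerate from a glycolytic intermediate, rose from 21.8 ± 1.70 to 47.1 ± 3.51 CPM (log2 1.12, SE 0.093, adjusted p = 8.44e-09). PDP1, the phosphatase that activates pyruvate dehydrogenase, rose from 44.1 ± 3.43 to 67.98 ± 2.76 CPM (log2 0.63), and PFKFB2 from 12.6 ± 1.04 to 19.1 ± 2.24 CPM (log2 0.60). TXNIP, an inhibitor of glucose uptake, fell from 81.6 ± 7.99 to 44.9 ± 3.83 CPM (log2 -0.86, SE 0.083, adjusted p = 8.5e-08). In each of these 4 genes the genotypes did not overlap. The number called lower was 3 without wild-type replicate 2 or mutant replicate 1, where 17.9% and 23.2% of all tested genes were called in either direction.

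Of 24 tested regulators of the HIF pathway, 6 rose, 0 fell and 18 were not called with edgeR (median log2 -0.003). The 25% called were near the 21.2% of all tested genes, of which 11.9% were higher and 9.26% lower. Of these 24, 9 (37.5%) had an unadjusted p under 0.05, against 32.6% of all tested genes. With upper-quartile scaling or without mutant replicate 3, 2 were called lower, and with limma-voom or without wild-type replicate 3, 1 was. All tested genes called in either direction were 21.7%, 16.8%, 21.0% and 15.9% in these settings, in the same order. ARNT2, a partner subunit of HIF proteins, rose from 31.2 ± 1.67 to 61.3 ± 1.28 CPM (log2 0.97, SE 0.078, adjusted p = 5.41e-09). Both coactivators of HIF rose, CREBBP from 119 ± 7.80 to 173 ± 2.85 CPM and EP300 from 148 ± 6.31 to 207 ± 19.3 CPM (log2 0.54 and 0.48). RICTOR, of the mTORC2 complex, rose by 0.32 on the log2 scale (adjusted p = 0.0103), a call lost without wild-type replicate 1 (0.0745) or mutant replicate 2 (0.0666). VHL, whose product marks HIF-1 alpha for destruction, had 128 and 119 CPM and was not called, like the partner gene ARNT (66.2 and 64.6 CPM), and both were chosen after their values were seen.

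Of 43 tested other HIF target genes, 4 rose, 8 fell and 31 were not called (27.9% called, median log2 -0.15). The share called over all tested genes was 21.2%, with 11.9% higher and 9.26% lower. MET, a receptor tyrosine kinase gene, fell from 69.96 ± 1.99 to 17.8 ± 1.79 CPM (log2 -1.97, SE 0.088, adjusted p = 3.47e-13). LOXL2, a collagen crosslinking enzyme gene, fell from 13.1 ± 1.51 to 6.18 ± 0.918 CPM, and BHLHE40, a transcriptional repressor gene, from 28.5 ± 8.47 to 15.8 ± 0.411 CPM (log2 -0.86, adjusted p = 0.00684, and 0.0683 without mutant replicate 1). RORA, a nuclear receptor gene, rose from 46.5 ± 2.87 to 116 ± 12.95 CPM (log2 1.33, adjusted p = 6.13e-11). The number called lower was 4 with DESeq2, 4 without wild-type replicate 1 or mutant replicate 2, and 5 without wild-type replicate 2 or mutant replicate 3. DESeq2 called 2189 genes in either direction, which is 8.53% of the 25665 genes with at least 1 count. That base includes genes with too few counts for the edgeR test of 14835 genes. The 8.53% is therefore not a background for the listed genes and cannot be set beside the edgeR shares. Of 13917 genes with an adjusted p from the authors, 16.5% were under 0.05. Without wild-type replicate 1, mutant replicate 2, wild-type replicate 2 or mutant replicate 3, edgeR called 16.5%, 16.2%, 17.9% and 16.8% of all tested genes, in the same order.

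Across 13 alternatives per gene, 4 of the 10 called members were called each time, namely BNIP3, BNIP3L, EGLN3 and SLC2A1. The remaining 6 lost the call in at least 1 alternative and kept their direction. Of the 25 members that were not called, 11 were called in at least 1 alternative and 14 in none.

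**Figure D5:**
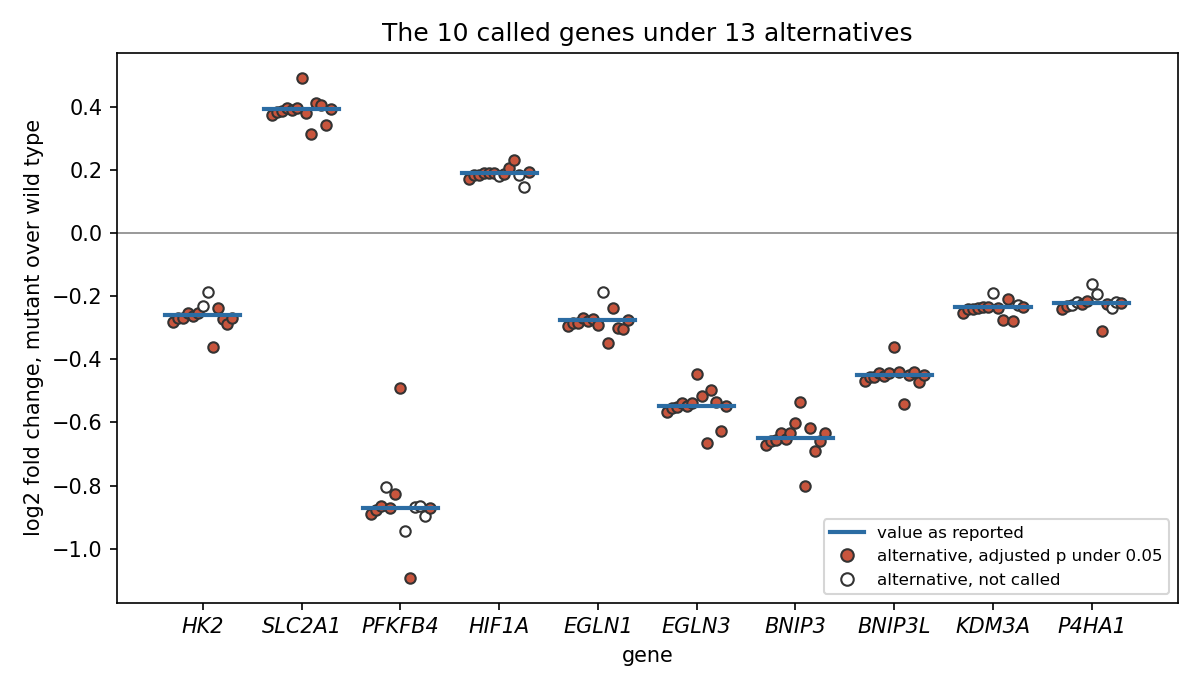
Log2 fold change of the 10 called members as reported (blue line) and under each of 13 alternatives (points, filled where the adjusted p is under 0.05). BNIP3, BNIP3L, EGLN3 and SLC2A1 have filled points only, and PFKFB4 ranges from -1.09 to -0.49.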

How the data were processed

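PolyA RNA of 3 wild-type and 3 mutant HAP1 libraries was measured. The authors deposited raw counts per gene, without normalization. The submitters' processing notes name TopHat2 2.1.1, HTSeq, DESeq2 and build hg19, without roles, and the strand setting of the counting is not given in the sources used here. Their second table, also deposited by the authors, holds a mean signal (counts over size factors), log2 fold changes with standard errors and a Wald score, p-values and adjusted p-values for 15409 genes, and a mark of other kind that was not used. A total of 5 closing rows without a gene, among them 9.05 to 10.5% of reads outside features, were set aside.

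Counts were tested in R 4.3.3 with edgeR 4.0.16 (filterByExpr by group, TMM factors 0.995 to 1.004, robust quasi-likelihood F test, genotype as the only term, two-sided, Benjamini-Hochberg over 14835 tested genes, called under 0.05). Standard errors and 95% intervals of log2 changes came from the test statistic. CPM are TMM-scaled. The test was checked on simulated data. DESeq2 1.42.0, limma-voom 3.58.1, upper-quartile and RLE scaling, no filter beyond 1 count, the replicate number as a block, leaving out each library, and, chosen after seeing the data, adding pseudogene counts were alternatives. Labels were the only source of groups.

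Members and lists were chosen with earlier results of these data known. All 36 members are accounted for, and from each other list up to 4 called genes with the largest absolute change at an average log2 CPM of at least 2 are named. Symbols came from the authors' table or, for the rest, from a table of Ensembl identifiers (52293 of 57773 genes). Exon lengths came from GENCODE v29 and promoter windows from RefSeq on GRCh38.p14, another build than that of the counts.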

Additional observations from a re-analysis of the deposited data

How the results depend on the processing

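Over all members and named genes, 545 of the gene values under an alternative kept their direction and side of the threshold, 22 lost a call, 26 gained one and 6 changed sign, all in enzyme genes that were not called and all on leaving out 1 library. Over the left-out libraries the log2 change ran from -0.0374 (wild-type replicate 3) to 0.110 for ALDOA, from -0.00562 (mutant replicate 1) to 0.122 for ENO2, from -0.0313 (mutant replicate 1) to 0.0411 for PFKL, also negative without wild-type replicate 2 (-0.00665), and from -0.0119 (wild-type replicate 3) to 0.0632 for PKM, also negative without mutant replicate 3 (-0.00788). Leaving out each library in turn, members called higher numbered 1 to 3 and members called lower 4 to 16. Other glucose and pyruvate genes called lower numbered 3 to 6, HIF pathway regulators called lower 0 to 2, and other HIF target genes called lower 4 to 10. Genes called in either direction were 15.9 to 23.2% of all tested genes in these settings. HIF pathway regulators called lower were 2 with upper-quartile scaling and 1 with limma-voom, and other HIF targets called lower were 4 with DESeq2. Deviations of same-numbered libraries from their genotype mean correlated at 0.076, 0.09 and -0.116. Those of differently numbered libraries correlated at -0.183 to 0.119. With 3 libraries in each genotype, these values cannot decide whether the replicate numbers pair the libraries. With the replicate block, members called lower numbered 14 in place of 8, and 24.1% of all tested genes were called in either direction in place of 21.2%. The cause of these changes in number was not tested. Scalings moved the median log2 change of all genes by under 0.1. Isozyme shares and role sums moved by less than the spread between replicates in 97 of their alternatives. The exception was the PFKM share, whose difference was -1.64 percentage points in raw counts and -1.52 per kilobase. At these depths CA9 could not be tested, and ADM, NDRG1 and ANKRD37 have wide intervals.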
